A study of Mus musculus with 8 samples.

Results

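Mpo-high cells with primary granule RNA were drawn from cultured mouse bone marrow by the RNA of 6 genes, and 3251 of the 17384 cells that passed the quality limits met the rule. A cell was kept when 300 or more genes were detected in it and mitochondrially encoded genes held no more than 10% of its unique molecular identifiers (UMIs, 1 per captured RNA molecule). The cells were then chosen by measured expression, so the values of these genes describe the choice. A kept cell was taken as Mpo-high when Elane, Mpo, Prtn3 and Ctsg together reached at least 100 UMIs per 10000, Mpo itself reached at least 8 and Ngp and Camp together stayed under 150. Deoxycholic acid cultures gave 1564 of these cells among 8321 kept cells, and media control cultures gave 1687 among 9063.

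Whole bone marrow cells of mice, at 200000 per well, were grown for 1 week on irradiated AFT024 cells, a feeder line of mouse fetal liver stroma. The medium of both groups held 1 µM hydrocortisone, a glucocorticoid. One group also received deoxycholic acid at 35 µM, a secondary bile acid that gut bacteria make from a primary one, and the other was the media control. The sources used here do not give strain, genotype, age or sex of the mice. Cells were sorted as lineage-negative, so cells carrying mature blood lineage markers on their surface were depleted before capture. The labels list 4 samples for each group and 2 experimental replicates, but the deposited cell names carry only the group. Each group was therefore treated as 1 library. No difference below has a replicate check or a test, and the 95% intervals cover counting error only.

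Neutrophils and monocytes arise from granulocyte-monocyte progenitors, which pass through a promyelocyte stage before neutrophils form. At that stage the cells make myeloperoxidase and the serine proteases elastase, proteinase 3 and cathepsin G and store them in primary (azurophil) granules. Later precursors stop this and make the proteins of secondary and tertiary granules, among them lactoferrin, cathelicidin and neutrophilic granule protein. The transcription factors PU.1 and C/EBP are known to act on primary granule genes. Bile acids are known to act on cells through nuclear receptors and a membrane receptor, and the series title concerns one of the nuclear receptors and the making of myeloid cells.

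The 4 primary granule genes of the rule are shown here by the 250 bases before their RefSeq start sites, since their RNA defines these cells. Capitals mark every match to GAGGAAG, a purine-rich core of the kind that PU.1 binds, searched on both strands. The sequences are from RefSeq, build GRCm38.p6, written 5′ to 3′ on the strand of the gene. The Mpo window lies at chr11:87793534-87793783 on the plus strand, the Elane window at chr10:79886062-79886311 and the Prtn3 window at chr10:79879417-79879666, both on the plus strand, and the Ctsg window at chr14:56102575-56102824 on the minus strand.
Mpo: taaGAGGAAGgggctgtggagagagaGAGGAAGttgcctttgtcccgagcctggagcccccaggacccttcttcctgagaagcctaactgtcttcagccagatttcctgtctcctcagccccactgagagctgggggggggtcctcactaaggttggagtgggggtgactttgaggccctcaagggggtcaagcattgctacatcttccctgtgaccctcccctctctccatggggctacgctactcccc
Elane: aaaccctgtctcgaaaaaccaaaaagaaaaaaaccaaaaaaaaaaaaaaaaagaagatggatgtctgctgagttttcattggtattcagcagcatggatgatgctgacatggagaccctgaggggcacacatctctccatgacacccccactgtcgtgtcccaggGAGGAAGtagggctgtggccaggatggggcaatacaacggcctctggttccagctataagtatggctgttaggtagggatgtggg
Prtn3: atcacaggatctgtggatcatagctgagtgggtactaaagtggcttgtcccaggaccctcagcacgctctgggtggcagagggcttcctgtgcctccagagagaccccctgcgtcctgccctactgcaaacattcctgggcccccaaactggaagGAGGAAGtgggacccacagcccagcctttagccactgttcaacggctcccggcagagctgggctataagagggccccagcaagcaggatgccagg
Ctsg: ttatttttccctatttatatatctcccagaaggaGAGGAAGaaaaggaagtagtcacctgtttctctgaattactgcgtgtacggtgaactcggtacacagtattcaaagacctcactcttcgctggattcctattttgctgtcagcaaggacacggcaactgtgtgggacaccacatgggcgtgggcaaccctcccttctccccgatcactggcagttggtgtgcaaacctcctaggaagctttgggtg
GAGGAAG was found in all 4 windows, in 2 places in the Mpo window, starting 247 and 224 bases before the start site, and once in each of the others. It was found in 10.5% of 27025 promoter windows of the same length and in 6 of the 14 windows of the primary granule gene list. TTNNGNAA, a loose form of the C/EBP site searched on both strands, had no match in the 4 windows and was found in 37.1% of all windows. A match is a string of letters and not a bound site.

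The label granulocyte-monocyte progenitor was carried in part by the data. All 6 markers given for it were abundant, at levels here given as CPM (the UMIs of a gene summed over the cells of a library, scaled to a total of 1000000). Mpo, which encodes myeloperoxidase, was at 2244 CPM in Mpo-high cells of the deoxycholic acid library and 1891 CPM in those of the control library, and its log2 fold over the other kept cells was 3.31 and 3.03. Mpo was part of the rule, so its height is no finding. Fkbp11, a peptidyl-prolyl isomerase of the secretory pathway that the rule did not use, was at 97.7 CPM with deoxycholic acid and 113 CPM in control, with log2 folds of 2.19 and 2.08 over the other cells. Myl10, a myosin light chain gene also outside the rule, was at 261 and 315 CPM, with log2 folds of 1.94 and 1.99. Every gene of these cells bears on how they were chosen through the cells themselves, so these folds are descriptions.

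Several genes of the monocyte side and of earlier progenitors, among them Irf8, Csf1r, Cd34 and Flt3, were at or near 0. Irf8, a transcription factor of monocyte and dendritic cell fate, was at 0.26 CPM in Mpo-high cells with deoxycholic acid (0.112 to 0.513) and 0.441 CPM in control (0.266 to 0.689). Csf1r, the receptor for macrophage colony-stimulating factor, was at 1.01 CPM with deoxycholic acid and 0.488 CPM in control. Cd34, a surface protein of early progenitors, was at 1.53 CPM with deoxycholic acid and 3.20 CPM in control, and Flt3, a cytokine receptor of early progenitors, was at 0.878 and 1.32 CPM. By contrast Cebpe, a transcription factor needed for late granulocyte stages, was at 194 CPM with deoxycholic acid and 196 CPM in control. Gfi1, a repressor that favours the neutrophil side, was at 28.9 and 38.8 CPM. The 8 monocyte markers summed to 1312 CPM with deoxycholic acid and 1203 CPM in control, against 1194 and 1109 CPM in the other kept cells, and 2 of 8 reached 20 CPM in both libraries. These were Ly6c2, a surface antigen of monocytes that neutrophil precursors also carry, at 1091 CPM with deoxycholic acid and 1021 CPM in control, and F13a1, a coagulation factor subunit made by monocytes, at 203 and 155 CPM. The stem and early progenitor list summed to 71.6 CPM with deoxycholic acid and 60.8 CPM in control, against 25.7 and 28.7 CPM in the other kept cells, and most of it was Kit, the receptor for stem cell factor. Since the markers were carried in part, the cells are called Mpo-high cells below.

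**Figure D1:**
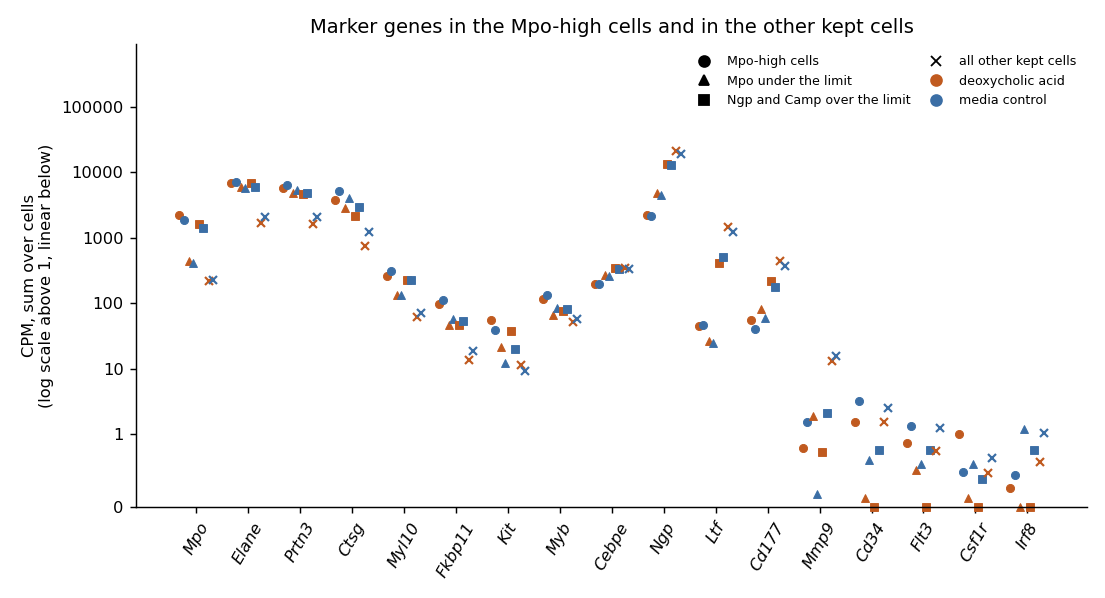
Levels of marker genes in CPM (UMIs summed over cells, log scale above 1 and linear below) in Mpo-high cells (circles), in cells that met the rule except for Mpo (triangles), in cells that met it except for the Ngp and Camp limit (squares) and in all kept cells that were not Mpo-high, near misses included (crosses), with deoxycholic acid in orange left of media control in blue. Mpo and Fkbp11 stand highest in the circles, Ngp and Ltf in the crosses, and Cd34, Flt3, Csf1r and Irf8 lie under 5 CPM in every set.

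Markers of other cell types gave these levels in the same cells. The 8 immature neutrophil markers summed to 5945 CPM with deoxycholic acid and 5881 CPM in control, all 8 at 20 CPM or more, against 45758 and 44222 CPM in the other kept cells of the deoxycholic acid and control libraries. The sums of the mature neutrophil list were 49498 CPM with deoxycholic acid and 46327 CPM in control, carried by S100a8 and S100a9, while Mmp9, a protease of tertiary granules, was at 0.813 and 1.56 CPM. Basophil and mast cell markers summed to 119 CPM with deoxycholic acid and 104 CPM in control, and 1 of 8 reached 20 CPM in both. Eosinophil, megakaryocyte, B lymphoid, macrophage and stromal fibroblast markers had no gene at 20 CPM in both libraries. Ms4a1 and Pax5 of B cells, Cd3e and Trbc1 of T cells, C1qa and C1qb of macrophages, Siglech of plasmacytoid dendritic cells and Col1a2 of fibroblasts had no UMI in Mpo-high cells, where 3 counts come to 0.0975 CPM with deoxycholic acid and 0.0697 CPM in control. The T and NK list summed to 227 CPM with deoxycholic acid and 282 CPM in control, nearly all of it Nkg7, a granule membrane protein gene that was at 226 and 282 CPM here. The erythroid list summed to 243 and 220 CPM with 1 of 8 genes at 20 CPM in both, and Hbb-bs had no UMI. Unlike Siglech alone, the dendritic cell list was not at 0. It summed to 60.3 CPM with deoxycholic acid and 83.7 CPM in control, against 25.6 and 35.5 CPM in the other kept cells. Nearly all of that list's sum was Bst2, the 1 gene of its 8 at 20 CPM in both libraries.

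The 25 genes with the highest log2 fold over the other kept cells had several roles. They were taken by the smaller value of the libraries among genes at 50 CPM or more. Mpo, a gene of the rule, was one of them. Srgn, serglycin, had folds of 1.86 with deoxycholic acid and 1.79 in control, and Nkg7 had 1.72 and 1.71. Nop10, a part of the particles that modify ribosomal RNA, was at 499 CPM with deoxycholic acid and 602 CPM in control, with folds of 1.83 and 1.69. Selenom, a selenoprotein gene of the endoplasmic reticulum (1.70 and 1.49), Ssr2, a subunit of the translocon-associated complex (1.42 and 1.35), Srm, spermidine synthase (1.48 and 1.39), and the mitochondrial chaperonin genes Hspe1 (1.75 and 1.52) and Hspd1 (1.36 and 1.31) were among them. Ccnd2, cyclin D2 of G1 phase, had folds of 1.62 with deoxycholic acid and 1.53 in control. The 25 listed cytosolic ribosomal protein genes summed to 116832 CPM in Mpo-high cells with deoxycholic acid and 112320 CPM in control, against 71476 and 72199 CPM in the other kept cells. All of these genes were read from the chosen cells, so the folds are descriptions.

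Libraries differed in depth. Mpo-high cells had a median of 18269 UMIs and 3421 genes with deoxycholic acid and 24401 UMIs and 3983 genes in control, and 2.20% and 2.18% of UMIs were mitochondrial. Only 2 barcodes of Mpo-high cells occurred in both libraries. With each cell thinned to 5000 UMIs before the rule was applied, 1570 of 7670 cells with deoxycholic acid and 1678 of 8394 control cells were Mpo-high, a share ratio of 1.02.

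Mpo-high cells made up shares of the libraries whose intervals overlapped. They were 18.8% of kept cells with deoxycholic acid (exact binomial interval 18.0 to 19.7) and 18.6% in control (17.8 to 19.4), a ratio of 1.01 (0.942 to 1.08). Cells that missed the rule by the Mpo or the Ngp and Camp condition alone took smaller shares with deoxycholic acid. Cells with primary granule RNA but Mpo under 8 per 10000 were 407 cells, 4.89% (4.44 to 5.38), with deoxycholic acid and 666 cells, 7.35% (6.82 to 7.91), in control. Cells over the Ngp and Camp limit were 135 cells, 1.62% (1.36 to 1.92), and 187 cells, 2.06% (1.78 to 2.38), with intervals that overlapped. The share ratio depended on where the limits lay. At a granule gene sum of at least 200 it was 0.718, and at Mpo of at least 16 it was 1.22.

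Cells lay close to both sides of the limits. Just inside the Mpo limit, from 8 to under 9 per 10000, lay 50 cells with deoxycholic acid and 94 control cells, and just outside, from 7 to under 8, lay 66 and 101. Their Mpo medians were 8.61 with deoxycholic acid and 8.58 in control inside, and 7.60 and 7.59 outside. At the limit on the granule gene sum, 52 cells with deoxycholic acid and 36 control cells lay within 10 above it and 51 and 32 within 10 below it.

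In single cells the 4 primary granule genes did not differ in the same direction between the libraries. Mpo had a lowest value of 8.01, a median of 20.8 and a highest value of 100 UMIs per 10000 in the 1564 cells with deoxycholic acid, and 8.02, 17.2 and 80.6 in the 1687 control cells. Elane, neutrophil elastase, ran from 0 through a median of 67.9 to 217 with deoxycholic acid and from 0.598 through 73.7 to 237 in control. Prtn3, proteinase 3, ran from 0 through 56.7 to 139 with deoxycholic acid and from 7.75 through 63.2 to 189 in control. Ctsg, cathepsin G, ran from 0 through 37.1 to 115 with deoxycholic acid and from 0 through 50.7 to 152 in control. The Mpo median was thus higher with deoxycholic acid and the other 3 medians were lower, and all 4 ranges overlapped almost in full. Since the rule chose cells by these genes, the values describe the chosen cells.

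**Figure D2:**
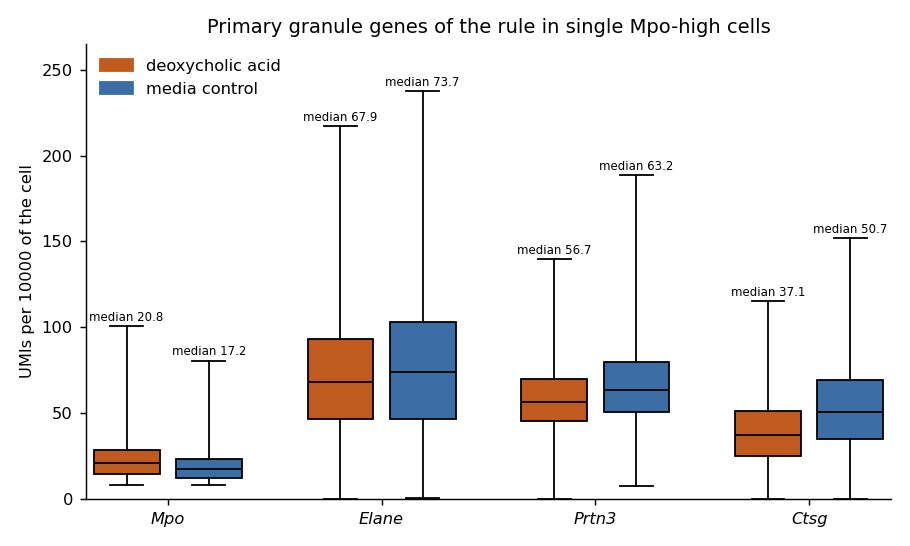
UMIs per 10000 of Mpo, Elane, Prtn3 and Ctsg in single Mpo-high cells with deoxycholic acid (orange, 1564 cells) and in media control (blue, 1687 cells); boxes span the quartiles with a line at the median, and whiskers reach the lowest and highest cell. The Mpo median is higher with deoxycholic acid (20.8 against 17.2), and those of Elane, Prtn3 and Ctsg are lower, with ranges that overlap.

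The wider list of primary granule genes leaned slightly lower with deoxycholic acid. The list includes granule genes of the rule, Ctsg among them, so its values in part describe the choice of cells. Of its 18 genes, 17 had at least 5 CPM in either library, and 2 of these were higher and 15 lower with deoxycholic acid, at a median log2 ratio of -0.12, beside a median of 0.01 over all 8118 genes at 5 CPM, of which 51.1% were above 0. With the length trend described below taken out the median was -0.06. In the other kept cells the same genes had a median of -0.08. Ctsg was at 3698 CPM with deoxycholic acid and 5066 CPM in control, a log2 ratio of -0.45 (-0.46 to -0.44), and Ms4a3, a membrane protein gene of granulocyte-monocyte progenitors, was at 1665 and 2177 CPM, a log2 ratio of -0.39. Srgn, the serglycin core that packs proteases into granules, was at 3027 CPM with deoxycholic acid and 3768 CPM in control (-0.32). Prss57, a further serine protease of these granules, was at 221 and 225 CPM (-0.03, -0.07 to 0.02). None of the 17 reached a log2 ratio of 0.5 either way, which 2.78% of the 8118 genes did upward and 3.34% downward.

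Later granule genes did not lean one way. The list of 16 secondary and tertiary granule genes also held S100a8 and S100a9. Of these 16, 14 were measured, 7 were higher and 7 lower, with a median of 0.00. In the other kept cells the same genes had a median of 0.18. The rule held Ngp and Camp under a limit in Mpo-high cells alone, so these medians come from cells chosen differently. Fcnb, ficolin B, a lectin of myeloid precursors, was at 257 CPM with deoxycholic acid and 164 CPM in control (log2 ratio 0.65, 0.60 to 0.70), and Cd177, a neutrophil surface protein gene, was at 55.6 and 40.7 CPM (0.45). S100a8 and S100a9, whose products form calprotectin, went opposite ways. S100a8 was at 28371 CPM with deoxycholic acid and 22652 CPM in control (0.32), and S100a9 was at 21084 and 23622 CPM (-0.16). Ltf, lactoferrin, was at 45.6 and 46.2 CPM (-0.02), and Camp, a gene of the rule, was at 503 and 585 CPM (-0.22).

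Mpo-high cells were not uniform, and many other genes differed along the amount of Mpo. Cells with Mpo at 8 to under 16, at 16 to under 32 and at 32 or more per 10000 were 487, 807 and 270 with deoxycholic acid, or 31.1%, 51.6% and 17.3%. In control they were 724, 836 and 127, or 42.9%, 49.6% and 7.53%. The uppermost range therefore held 17.3% (15.4 to 19.2) with deoxycholic acid and 7.53% (6.31 to 8.89) in control. With every cell thinned to 5000 UMIs, and 651 cells of the deoxycholic acid library and 669 of the control left out as shallower, this range held 21.1% (19.2 to 23.3) with deoxycholic acid and 11.9% (10.4 to 13.6) in control. The median UMI counts of the uppermost range were 17166 with deoxycholic acid and 25578 in control, close to those of the other ranges of the same library. Mpo is a gene of the rule, and its distribution is a description of the cells chosen.

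Kit, Myb and Cebpa were higher toward high Mpo. Kit was at 36.5, 58.1 and 90.5 CPM over the 3 ranges with deoxycholic acid and at 24.2, 46.0 and 83.4 CPM in control. Myb, a transcription factor of immature blood cells, was at 81.4, 121 and 178 CPM with deoxycholic acid and 105, 152 and 196 CPM in control. Cebpa, the factor that starts granulocyte commitment, was at 17.3, 25 and 38.4 CPM with deoxycholic acid and 22.2, 30.0 and 56.6 CPM in control. Genes outside the rule and at 20 CPM or more were ranked by the smaller of the libraries' folds, a ranking set after values had been seen. It kept only genes that went the same way in both libraries, so the choice fixed that likeness. Of 22 G2 and M phase genes, not picked this way, 3 were higher and 10 lower toward high Mpo in both libraries. The 20 leading genes of the ranking also included Thbs1 (thrombospondin), Cd93, Cdk6 (a G1 kinase), Klf9, Nkg7 and Myl10. Thbs1 had a log2 difference from the lowest to the uppermost range of 1.26 with deoxycholic acid and 1.44 in control. Of 8 measured growth factor receptors, 7 were higher in the uppermost than in the lowest range in both libraries. Lists of other roles gave the following counts. Of 10 unfolded protein response regulators 9 were higher and 1 lower in both, and of 16 glycolysis genes 13 were higher and 2 lower. Of 23 histone genes 1 was higher and 20 were lower. The share over all genes was not worked out, so these counts do not set the lists apart from other genes. Genes of early progenitors were not all higher toward high Mpo. Ly6a, which encodes the stem cell antigen Sca-1, was at 4.03 CPM in the lowest and 3.29 CPM in the uppermost range with deoxycholic acid, and at 7.61 and 4.98 CPM in control.

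Lcn2, Lgals3 and stefin genes were higher toward low Mpo. Lcn2, lipocalin 2 of secondary granules, was at 1280, 972 and 770 CPM over the rising ranges with deoxycholic acid and 1273, 846 and 722 CPM in control. Lgals3, galectin 3, was at 264, 168 and 96.9 CPM with deoxycholic acid and 253, 155 and 93.0 CPM in control. The stefin genes Stfa1, Cstdc4 and Cstdc5, which encode inhibitors of cysteine proteases, had the widest spans. Stfa1 was at 1770, 1004 and 453 CPM with deoxycholic acid and 1253, 377 and 54.7 CPM in control. Stefin genes are a family of near-identical copies whose reads can be split between members, so single values are uncertain. The histone gene Hist1h1b and the ferritin light chain Ftl1 were also among the 20 lower genes. The summed secondary and tertiary granule list ran 71162, 51348 and 41171 CPM with deoxycholic acid and 65708, 43736 and 38013 CPM in control. Most of this sum was S100a8 and S100a9, so it mainly follows the calprotectin genes and says little of the other members. Of the 14 measured genes of that list, 10 were lower and 4 higher in the uppermost than in the lowest range in both libraries. No share over all genes was at hand to set beside this count. Ltf was at 46.7, 44.2 and 47.8 CPM with deoxycholic acid and 37.0, 47.4 and 91.4 CPM in control.

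**Figure D3:**
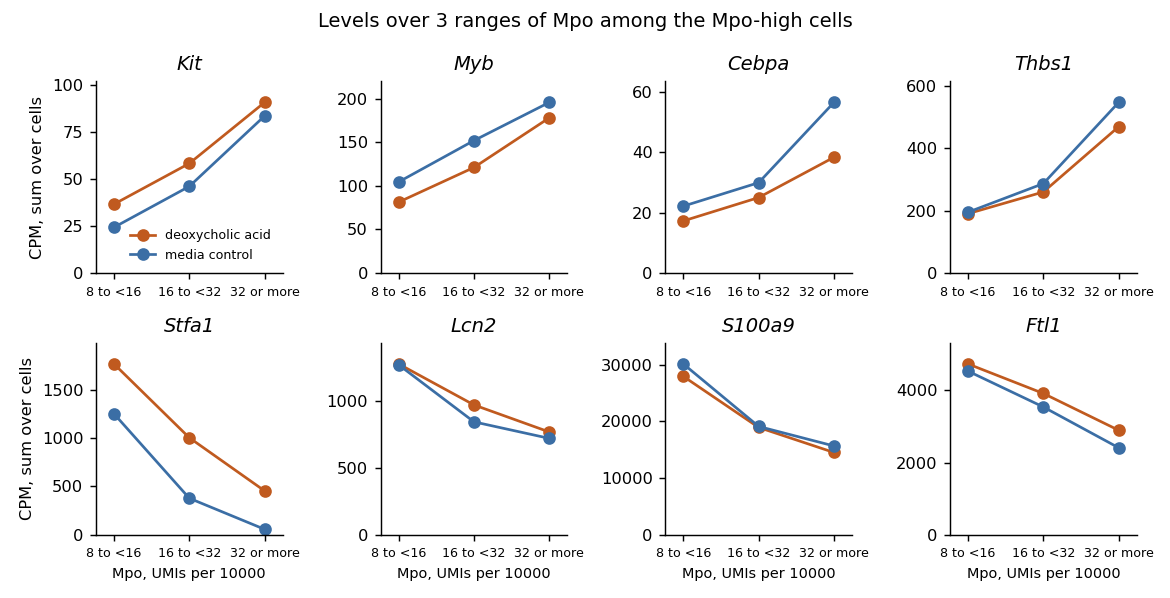
CPM (UMIs summed over cells) of 8 genes in Mpo-high cells with Mpo at 8 to under 16, 16 to under 32 and 32 or more UMIs per 10000, with deoxycholic acid in orange and media control in blue; each point is 1 library and axes start at 0. Kit, Myb, Cebpa and Thbs1 are higher and Stfa1, Lcn2, S100a9 and Ftl1 lower toward high Mpo in both libraries. The genes come from a ranking that kept only genes going the same way in both.

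The cells also differed in the cell cycle. Summed over 22 genes of G2 and M phase, the median was 16.7 UMIs per 10000 in Mpo-high cells with deoxycholic acid and 17.6 in control, against 21 and 20.3 in the other kept cells. Limits at 12.7 and 22.7 per 10000, which cut all Mpo-high cells into 3 equal parts, left 548, 489 and 527 cells with deoxycholic acid and 536, 594 and 557 in control. From the lowest to the uppermost range, 14 of 18 S phase genes were lower and 2 higher in both libraries. Of 25 cytosolic ribosomal protein genes, 23 were lower and 2 higher in both. As the share over all genes was not worked out, these counts do not set either list apart. Ccne2, cyclin E2 of S phase entry, was at 62.6, 62.8 and 18.8 CPM with deoxycholic acid and 50.9, 57.0 and 18.3 CPM in control, and Mcm4, a helicase subunit, was at 110, 91.7 and 48.1 CPM and 97.8, 94.9 and 52.7 CPM. Rrm1, a ribonucleotide reductase subunit, went the other way at 80.4, 114 and 117 CPM with deoxycholic acid and 73.9, 109 and 116 CPM in control. The summed S phase list was highest in the middle range, at 1694, 1834 and 1306 CPM with deoxycholic acid and 1771, 2004 and 1490 CPM in control. Mpo hardly moved over these ranges, at 2342, 2176 and 2224 CPM with deoxycholic acid and 2010, 1804 and 1889 CPM in control.

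Between the libraries, cell cycle genes leaned little either way, with a few members apart. Of these 22 genes 15 were higher and 7 lower with deoxycholic acid, at a median log2 ratio of 0.07. Of 18 S phase genes 4 were higher and 14 lower, at a median of -0.06. Of all 8118 genes at 5 CPM, 51.1% were above 0. Cdk1, the kinase that starts mitosis, was at 50.0 CPM with deoxycholic acid and 89.1 CPM in control (-0.83, -0.92 to -0.75), and Pcna, the sliding clamp of DNA polymerase, was at 88.0 and 146 CPM (-0.73). Nusap1, a spindle protein gene, was at 84.9 CPM with deoxycholic acid and 58.2 CPM in control (0.55), and Mki67 was at 224 and 184 CPM (0.28). D cyclins, their kinases and inhibitors had 7 of 10 higher, at a median of 0.15 that came to 0.03 with the length trend taken out, with Ccnd2 at 165 and 152 CPM (0.12), and none of the 10 reached a log2 ratio of 0.5 either way.

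Over all genes, most log2 ratios of deoxycholic acid over control in Mpo-high cells were small. For 4501 genes whose higher library reached 20 CPM and 50 UMIs, the central 95% lay between -0.57 and 0.51 around a median of -0.01. A log2 ratio of at least 0.5, about 1.41-fold, was found upward in 117 genes (2.6%) and downward in 151 genes (3.35%), or 5.95% in all. In the other kept cells the shares were 1.48% upward and 3.3% downward of 4673 genes, or 4.77% in all. Ratios went with transcript length. The 1494 genes with the shortest transcripts had a median of -0.09 and held 47 of the higher genes and 87 of the lower, and the 1494 with the longest had a median of 0.06 and held 37 and 19. With the length trend taken out, 124 genes lay upward and 135 downward.

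**Figure D4:**
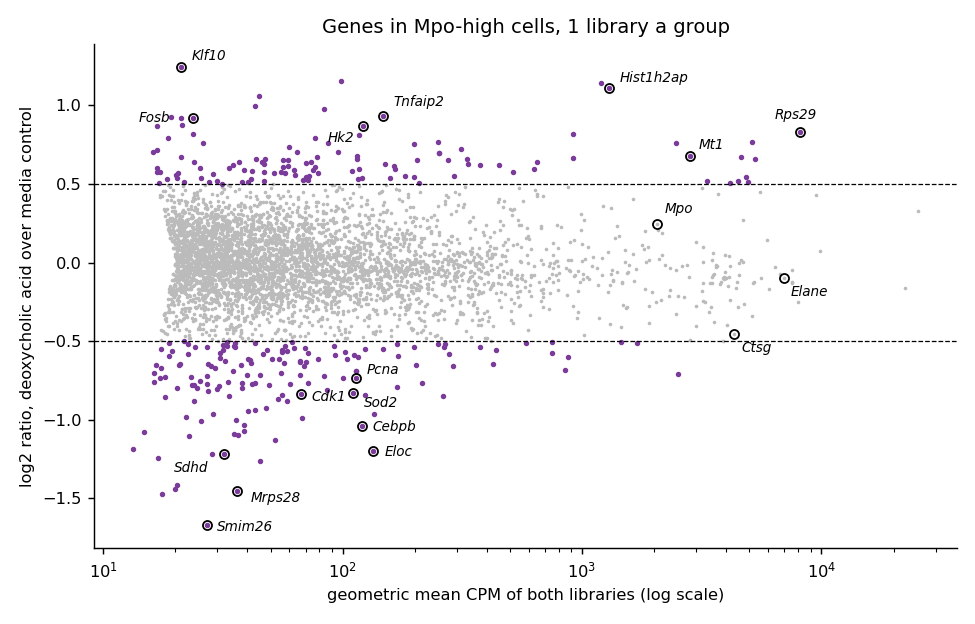
Log2 ratio of deoxycholic acid over media control in Mpo-high cells against the geometric mean of the libraries' CPM (log scale), 1 point per gene for 4501 genes, with dashed lines at 0.5 and -0.5, genes past them in purple and some of the genes named in the text circled. Most genes lie between the lines, with Klf10 (1.24) and Hist1h2ap (1.11) among the highest and Smim26 (-1.67) the lowest.

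Transcription factor genes held some of the larger differences. Klf10, a Krüppel-like factor induced by transforming growth factor beta, was at 32.4 CPM with deoxycholic acid (30.5 to 34.5) and 13.7 CPM in control (12.6 to 14.9), the largest positive log2 ratio, 1.24 (1.10 to 1.39). In the other kept cells its log2 ratio was 0.82. In cells that missed the rule by Mpo alone Klf10 was at 41.2 CPM with deoxycholic acid and 19 CPM in control. Cebpb, a factor of stress-driven granulocyte formation and macrophage genes, was at 84.0 CPM with deoxycholic acid (80.8 to 87.3) and 173 CPM in control (169 to 177), a log2 ratio of -1.04, and -0.90 in the other cells. In cells that missed the rule by Mpo alone it was at 104 and 236 CPM. Over the 3 Mpo ranges Cebpb was at 101, 80.0 and 62.8 CPM with deoxycholic acid and 195, 159 and 134 CPM in control. Klf10 was at 38.0, 31.6 and 24.4 CPM with deoxycholic acid and 16.5, 11.9 and 9.95 CPM in control. The ranges are parts of the same libraries and not replicates.

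The other myeloid transcription factors differed less. Of 16 measured, 6 were higher and 10 lower with deoxycholic acid at a median of -0.07, and Cebpb alone passed a log2 ratio of 0.5 either way. Spi1, which encodes PU.1, was at 185 CPM with deoxycholic acid and 196 CPM in control (-0.08). Gfi1 was at a log2 ratio of -0.42 (-0.54 to -0.31), and Cebpe at -0.01 (-0.06 to 0.04). Cebpz, a CCAAT-binding factor that despite its name acts in ribosome formation, was at 246 and 181 CPM (0.45). Kit was at 56.5 CPM with deoxycholic acid and 39.4 CPM in control, a log2 ratio of 0.52 (0.42 to 0.62), and 6 of 8 growth factor receptors were higher at a median of 0.13. Over the 8118 genes at 5 CPM, 51.1% were above 0. Kit was higher toward high Mpo in both libraries, and the mean of its ratios within the 3 Mpo ranges was 0.35. Csf3r, the receptor for granulocyte colony-stimulating factor, was at 20.8 and 18.9 CPM (0.14, -0.01 to 0.29).

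Immediate early genes of the AP-1 family were split by member. Of 15 listed, 11 were measured, and 7 were higher and 4 lower, at a median of 0.33, while the same genes had a median of -0.01 in the other kept cells. Fos was at 146 CPM with deoxycholic acid and 91.0 CPM in control (log2 ratio 0.68, 0.62 to 0.74; 0.38 in the other cells), and Jun at 416 and 269 CPM (0.63; 0.51 in the other cells). Fosb was at 32.7 CPM with deoxycholic acid and 17.3 CPM in control (0.92; 0.94 in the other cells), and Dusp1, a phosphatase that ends kinase signalling, was at 41.3 and 27.2 CPM (0.60). These 4 of 11 passed a log2 ratio of 0.5, which 2.78% of the 8118 genes did upward. Junb was at 38.5 and 42.8 CPM (-0.15), and Zfp36, which speeds mRNA decay, was at 14.3 and 18.4 CPM (-0.36). The list median depended on the Mpo ranges, with a value of 0.11 from the mean within them, while Fos, Fosb and Jun stayed past 0.5 in every setting tried. Dusp1 was not followed through the settings. Over the 3 Mpo ranges it was at 42.5, 40.3 and 41.9 CPM with deoxycholic acid and 23.9, 27.2 and 46.3 CPM in control. It was thus lower with deoxycholic acid in the uppermost range.

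Signals downstream of inflammatory receptors went both ways. Tnfaip2, a gene induced by tumour necrosis factor, was at 203 CPM with deoxycholic acid and 106 CPM in control (0.93, 0.87 to 0.99). Nfkbia, the inhibitor that nuclear factor kappa B induces against itself, was at 212 and 268 CPM (-0.33). Cxcl2, a neutrophil-attracting chemokine, was at 119 CPM with deoxycholic acid and 91.6 CPM in control (0.38), against -0.11 in the other cells. Ccl3, a chemokine of monocytes and basophils, was at 13.9 and 22.1 CPM (-0.67). In this list 5 of 9 measured genes were higher and 4 lower, at a median of 0.09, and the other kept cells had -0.22. That median ran from -0.18, for the mean within the Mpo ranges, to 0.20, and kept its sign in 14 of 18 settings.

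Glucose use and hypoxia-induced genes were mostly higher with deoxycholic acid. Of 16 glycolysis and glucose uptake genes, 13 were higher and 3 lower, at a median of 0.18, and of 14 measured hypoxia-induced genes 12 were higher and 2 lower, at a median of 0.19. The medians in the other kept cells were 0.26 and 0.19. Of all 8118 genes at 5 CPM in Mpo-high cells, 51.1% were above 0. Hk2, the hexokinase that commits glucose to the pathway, was at 165 CPM with deoxycholic acid and 90.4 CPM in control (0.87, 0.81 to 0.93), and Eno1, enolase, was at 644 and 464 CPM (0.47). Bnip3, a receptor that targets mitochondria for degradation, was at 113 CPM with deoxycholic acid and 66.8 CPM in control (0.76), while its relative Bnip3l was at 142 CPM in both (0.00). Pgam1, phosphoglycerate mutase, was at 278 and 346 CPM (-0.31), and Gapdh at 2710 and 2885 CPM (-0.09). Hk2 was the one glycolysis gene past a log2 ratio of 0.5, and Bnip3 and Ddit4 (8.49 and 5.55 CPM) were the hypoxia-induced ones. Over the 8118 genes, 2.78% were past it upward and 3.34% downward. Among cells with a granule gene sum of at least 200 the medians were 0.07 for glycolysis and 0.06 for hypoxia-induced genes.

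Hk2 and Bnip3, the glycolysis and hypoxia genes with the largest ratios, are shown by the 250 bases before their RefSeq start sites (GRCm38.p6). Capitals mark matches on either strand to ACGTG or GCGTG, the core that hypoxia-inducible factors bind. The Hk2 window lies at chr6:82774455-82774704 on the minus strand and the Bnip3 window at chr7:138909507-138909756 on the minus strand.
Hk2: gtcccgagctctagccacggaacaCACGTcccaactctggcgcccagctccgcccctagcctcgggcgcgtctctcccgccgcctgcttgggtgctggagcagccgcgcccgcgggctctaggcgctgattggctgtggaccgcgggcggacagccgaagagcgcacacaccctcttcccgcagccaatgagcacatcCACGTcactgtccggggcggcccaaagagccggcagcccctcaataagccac
Bnip3: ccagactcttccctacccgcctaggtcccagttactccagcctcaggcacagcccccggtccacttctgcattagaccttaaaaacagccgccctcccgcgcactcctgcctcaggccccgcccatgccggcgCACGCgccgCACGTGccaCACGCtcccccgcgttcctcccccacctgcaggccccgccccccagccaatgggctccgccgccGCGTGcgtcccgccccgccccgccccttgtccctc
The Hk2 window held 2 matches, starting 226 and 52 bases before the start site, and the Bnip3 window held 5, of which 2 overlap on opposite strands. Such a core occurred in 38.1% of the 27025 windows, in 10 of 13 windows of the hypoxia-induced list and in 13 of 15 windows of the glycolysis list. Windows were not matched on base composition.

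Metallothioneins, which bind zinc and copper and are induced by metals and glucocorticoids, were both higher. Mt1 was at 3571 CPM with deoxycholic acid and 2230 CPM in control (0.68, 0.67 to 0.69), and Mt2 at 259 and 154 CPM (0.75, 0.71 to 0.80). In the other kept cells the pair had a median of 0.57. Over the 3 Mpo ranges Mt1 was at 3756, 3520 and 3373 CPM with deoxycholic acid and 2295, 2215 and 1960 CPM in control. Antioxidant genes did not share the higher level of the metallothioneins. Sod2, the mitochondrial superoxide dismutase, was at 82.7 CPM with deoxycholic acid and 147 CPM in control (-0.83, -0.89 to -0.76), and Prdx1, a peroxiredoxin, at 210 and 301 CPM (-0.52). The antioxidant and ferritin list had 6 of 14 higher at a median of -0.02.

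Secretory pathway and ribosome genes are abundant in these cells. Secretory pathway genes leaned slightly lower, and cytosolic ribosomal protein genes did so by count but not by sum. Of 22 genes of endoplasmic reticulum folding and secretion, 6 were higher and 16 lower, at a median of -0.12, which came to -0.06 with the length trend taken out. The share above 0 over the 8118 genes at 5 CPM was 51.1%. Sdf2l1, a chaperone partner induced by unfolded protein, was at 221 CPM with deoxycholic acid and 321 CPM in control (-0.54), and Manf, a secreted stress protein gene, was at 447 and 576 CPM (-0.37). Hspa5, the main chaperone of that compartment, was at 778 and 774 CPM (0.01). Xbp1, a regulator of the unfolded protein response, was at 138 and 112 CPM (0.30), and the 10 measured regulators had a median of -0.02. The summed level of 25 cytosolic ribosomal protein genes was higher with deoxycholic acid, at 116832 CPM against 112320 CPM in control. By gene, 6 were higher and 19 lower, at a median of -0.08, which came to -0.01 with the length trend taken out. The higher ones included Rps29, at 10881 CPM with deoxycholic acid and 6121 CPM in control (0.83), Rpl38, at 6654 and 3913 CPM (0.77), and Rps27, at 3215 and 1897 CPM (0.76). These genes have many near-identical copies in the genome, so their values are uncertain. Ribosome biogenesis genes had 8 of 17 higher at a median of -0.04, with Wdr43, a ribosome assembly factor gene, at 321 and 198 CPM (0.70).

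Mitochondrial genes differed little as groups. Over the 8118 genes at 5 CPM, 51.1% were above 0. Of 13 mitochondrially encoded genes 9 were higher and 4 lower, at a median of 0.12, and mt-Nd3, a complex I subunit, was at 806 CPM with deoxycholic acid and 518 CPM in control (0.64). The 22 nuclear-encoded respiratory chain genes had 12 higher and 10 lower, at a median of 0.01, with Sdhd, the membrane anchor of complex II, at 21 and 48.8 CPM (-1.22, -1.35 to -1.09) as the one past a log2 ratio of 0.5. Its partners were closer, with Sdhb at 76.8 and 102 CPM (-0.41) and Sdha at 60.6 and 56.9 CPM (0.09). Of 18 mitochondrial ribosomal protein genes 6 were higher and 12 lower, at a median of -0.05, and Mrps28 stood apart at 21.8 and 59.7 CPM (-1.46).

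**Figure D5:**
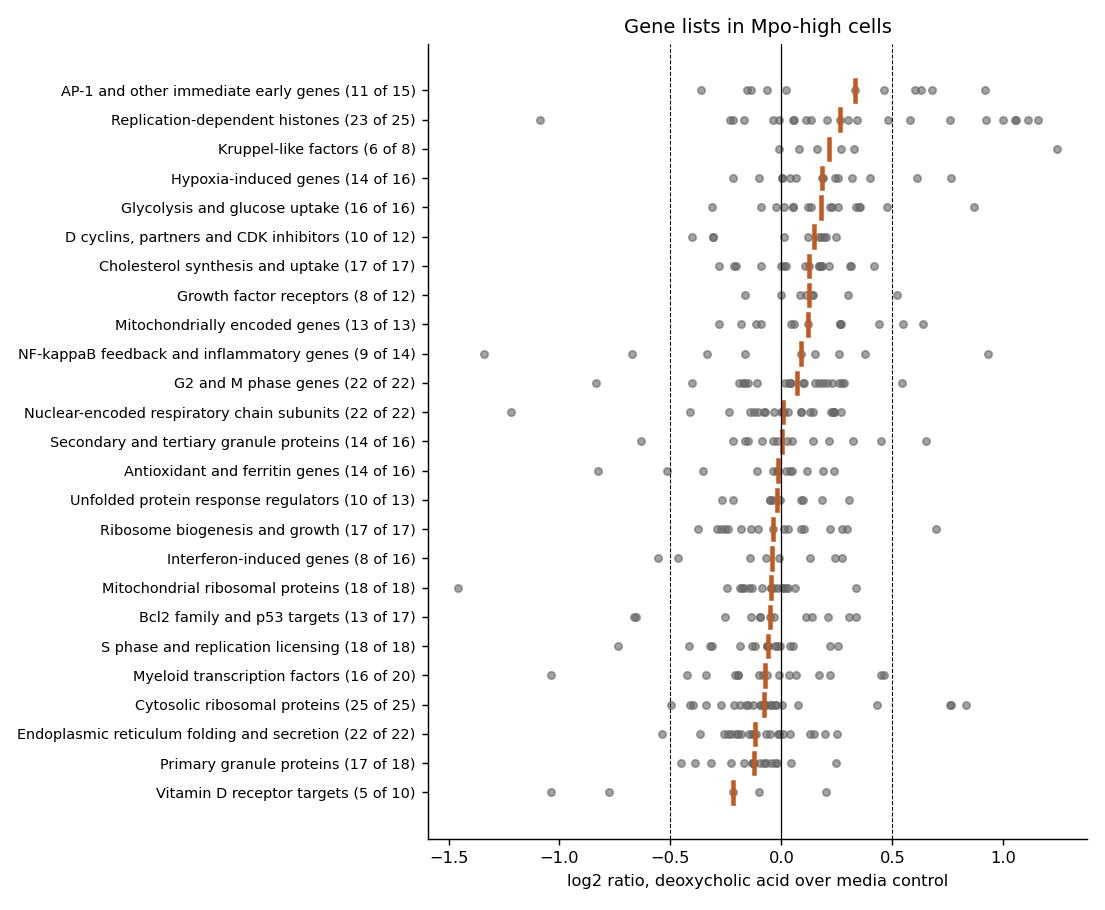
Log2 ratio of deoxycholic acid over media control in Mpo-high cells for the measured genes of each list (at least 5 CPM in either library), 1 point per gene, with an orange bar at the median of the list and dashed lines at 0.5 and -0.5, for lists with 5 or more measured genes. AP-1 genes (0.33) and histones (0.26) have the highest medians, and vitamin D receptor targets (-0.22), primary granule genes (-0.12) and folding and secretion genes (-0.12) the lowest. The vitamin D receptor target and primary granule lists include genes that the rule used.

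Replication-dependent histone genes were mostly higher with deoxycholic acid. Of 23 measured, 17 were higher and 6 lower, at a median of 0.26, while 51.1% of all 8118 genes at 5 CPM were above 0. A log2 ratio of 0.5 was reached by 8 upward and 1 downward, beside 2.78% and 3.34% of the 8118 genes. Hist1h2ap was at 1906 CPM with deoxycholic acid and 881 CPM in control (1.11, 1.09 to 1.13), Hist1h4h at 147 and 66.2 CPM (1.15), and Hist1h2af at 24.1 and 51.4 CPM (-1.09). The linker histone gene Hist1h1b was at 650 and 730 CPM (-0.17). Histone genes have near-identical copies between which reads can be split, so the values of single members are uncertain. Over the 3 G2 and M phase ranges Hist1h2ap was at 1483, 2110 and 2057 CPM with deoxycholic acid and 646, 980 and 955 CPM in control.

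The remaining large differences were in genes of varied roles. Among the 15 largest positive ratios were Dleu2, a long non-coding RNA host gene, at 118 CPM with deoxycholic acid and 59.8 CPM in control (0.98), Ano10, an anoctamin family gene, at 22.8 and 12.5 CPM (0.87), and Gm10076 (1.14). The largest negative ratio was that of Smim26, a small membrane protein gene, at 15.2 CPM with deoxycholic acid and 48.2 CPM in control (-1.67, -1.82 to -1.52). Unc50 (-1.47), Med31, a Mediator subunit (-1.44), Washc3, a subunit of the WASH complex of endosomes (-1.41), Srsf9, a splicing factor (-1.26), and Eloc, elongin C (-1.20), followed. Eloc was the most abundant of these, at 88.8 and 204 CPM. The other kept cells had -1.77 for Smim26, -1.28 for Unc50, -1.37 for Med31, -1.37 for Washc3, -1.28 for Srsf9 and -1.18 for Eloc.

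Bile acid receptors were scarcely seen. Gpbar1, the membrane bile acid receptor, had 0 UMIs with deoxycholic acid and 1 UMI in control. Nr1h4, which encodes the farnesoid X receptor, and Nr1i2, the pregnane X receptor gene, had no UMI in either library, which allows up to 0.0975 CPM with deoxycholic acid and 0.0697 CPM in control. S1pr2, a sphingosine phosphate receptor that conjugated bile acids can activate, was at 4.42 CPM with deoxycholic acid (3.71 to 5.23) and 4.88 CPM in control (4.24 to 5.58). Rxrb, a partner of several nuclear receptors, was at 32.8 and 29.7 CPM (0.15), and Rxra at 0.845 and 0.789 CPM. Of 10 genes listed as vitamin D receptor targets 5 were measured, with 1 higher and 4 lower at a median of -0.22. These were Cdkn1a, a cell cycle inhibitor, at 26.9 and 23.4 CPM (0.20), Cebpb (-1.04), Spp1, osteopontin, at 18.3 and 31.3 CPM (-0.78), Fbp1 at 13.4 and 14.4 CPM (-0.10), and Camp (-0.22), which the rule used. With a minimum of 20 CPM the median was -0.50.

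Where Mpo-high cells and the other kept cells differed most in their ratios, the differences were untested, since no interaction can be fitted with 1 library a group. Beside Klf10, Fos and Cxcl2, the ratios of Stfa1 (0.67 against 0.36), Cstdc5 (0.48 against 0.17) and Mcpt8, a basophil protease gene (0.26 against -0.19), were more positive in Mpo-high cells. Ratios of Lars2, the mitochondrial leucyl-tRNA synthetase (0.31 against 0.81), Stfa3 (-0.73 against 0.08), Stfa2 (-0.61 against 0.03) and Ifitm6, an interferon-induced membrane protein gene (-0.56 against -0.12), were more negative. Stfa2 and Stfa3 had their larger amounts outside, at 659 and 504 CPM in the other kept cells with deoxycholic acid and 646 and 475 CPM in control, against 24.9 and 18.0 CPM in Mpo-high cells with deoxycholic acid and 37.9 and 29.8 CPM in control. With Ngp and Camp held under 15 per 10000, the Stfa2 ratio became 0.98 and the Stfa3 ratio 0.20. The other ratios moved with the settings too. That of Ifitm6 ran from -0.87 to -0.04, with -0.04 under that same limit, that of Stfa1 from 0.23 to 1.65 and that of Cstdc5 from 0.17 to 0.94. Cxcl2 ran from 0.25 to 1.05, Mcpt8 from 0.07 to 0.43 and Lars2 from 0.15 to 0.58.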

How the data were processed

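Single lineage-negative cells were captured with Chromium 3′ reagents of 10x Genomics, version 3.1, and the labels' protocols give a target of 8000 cells for each sample. The submitters' processing notes name Cell Ranger 6.0. The genome build, annotation and cell filter were not named by any label or file header used here. The values deposited by the authors are UMI counts, whole numbers with no normalization, for 32285 genes and 17866 barcodes, 8520 with deoxycholic acid and 9346 in control; 11246 genes had no UMI, and 0 columns of values were left unused. Cultures with lithocholic acid, which the design text names, were not analysed here, and 1 bile acid receptor is not reported here.

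Labels list 4 samples a group, cell names give only the group, and nothing says whether the samples are separate cultures; the planned edgeR test per sample was not run. In all, 25 barcodes occurred in both libraries. Counts were summed over cells and divided by the total. Log2 ratios have exact binomial intervals, levels exact Poisson intervals and shares exact Clopper-Pearson intervals, all at 95%; UMIs of a cell are not independent, so they cover counting error only. Folds over the other kept cells had 10 CPM added to each side. The computation was tested on simulated counts. Scrublet in scanpy 1.11.5 marked 4 cells in each library with its automatic threshold (0.0481% with deoxycholic acid, 0.0441% in control), so doublets were not removed; an alternative left out the highest 6% of scores. Transcript lengths came from GENCODE M21 by symbol for 4481 of 4501 genes, and lengths were used for this alone.

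The members and gene lists were chosen with earlier results of these data known. Genes named were the 15 largest ratios each way, the 10 differing most each way from the other cells, the 25 highest over the other cells, the 15 most abundant, the markers, the bile acid receptors and, in each list, the 4 most abundant and the 2 with the largest ratio either way; the text gives a selection of these. Further list members that show a role, and genes of the Mpo and G2 and M phase ranges, were named after values were seen. Alternatives changed the cell limits, the rule's limits, depth, scaling, the weighting of Mpo and cell cycle ranges, transcript length and the minimum levels. Tools were R 4.3.3 with edgeR 4.0.16 (scaling factors only) and Python 3.11.15 with pandas 2.3.3, matplotlib 3.10.9, scipy 1.17.1 and numpy 2.4.6.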

Additional observations from a re-analysis of the deposited data

How the results depend on the processing

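The share ratio of Mpo-high cells, 1.01 in the report, was 0.718 with a granule gene sum of at least 200 and 1.22 with Mpo of at least 16, and lay between 0.948 and 1.03 under the other 8 settings that change the cells. Counts of 117 higher and 151 lower genes became 226 and 271 with a minimum of 5 CPM, 82 and 89 with 50 CPM, and 5 and 21 at a log2 ratio of at least 1; the other settings gave 108 to 168 higher and 135 to 195 lower genes. Stfa2 (0.98) and Stfa3 (0.20) turned to a higher level with deoxycholic acid when Ngp and Camp were held under 15 per 10000; the cause was not tested. Of 55 named genes past a log2 ratio of 0.5, 53 kept their sign under all 17 settings and 45 stayed past it under all. Other scalings shifted every ratio by 0.009 (median of ratios) or -0.015 (trimmed mean of M values). Removing the highest doublet scores took out 84 Mpo-high cells with deoxycholic acid and 76 in control. Leaving out a replicate was not possible, since cells carry only group names. No paired analysis was possible because cell names do not tell the lettered samples apart. Genes of few UMIs, such as the bile acid receptors, were limited by depth.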

Other observations

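Further gene lists of Mpo-high cells had medians between -0.05 and 0.22. Over the 8118 genes at 5 CPM, 51.1% were above 0. Cholesterol synthesis and uptake genes had 13 of 17 higher with deoxycholic acid at a median log2 ratio of 0.13, and 0.02 with a minimum of 20 CPM. Fdps, farnesyl diphosphate synthase and the most abundant of them, went the other way at 622 CPM with deoxycholic acid and 756 CPM in control (-0.28). Interferon-induced genes had 3 of 8 higher at a median of -0.04, with Bst2, tetherin, at 59.3 and 82.1 CPM (-0.47). Genes of the Bcl2 family and p53 targets had 5 of 13 higher at a median of -0.05, with Mcl1, a survival factor of neutrophils and their precursors, at 120 and 111 CPM (0.11). Bax, a pore-forming death effector, was at 236 CPM with deoxycholic acid and 241 CPM in control (-0.03, -0.08 to 0.01). Krüppel-like factors other than Klf10 were nearer to 0, with Klf6 at 104 and 83.3 CPM (0.33) and Klf13 at 91.6 and 86.7 CPM (0.08). Of the 6 measured, Klf10 included, 5 were higher, at a median of 0.22.

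Pdcd4, an inhibitor of translation initiation, was the one gene among the 25 with the highest fold over the other kept cells that was also past a log2 ratio of 0.5 between the libraries, at 415 CPM with deoxycholic acid and 262 CPM in control (0.66, 0.62 to 0.70). Its log2 fold over the other kept cells was 1.36 with deoxycholic acid and 1.29 in control.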
